A study of Mus musculus with 4 samples.

Results

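The vesicle priming genes comprised Unc13a, Unc13b and Unc13c (the Munc13 family), Cadps and Cadps2 (the CAPS family), Rims1 and Rims2 (the RIM family) and Snap25. These 8 genes, of 21933 in the deposited matrices, were selected on gene symbol, and all 8 were found. The set was assembled because, in an earlier look at the same libraries, Unc13c had stood out as lower in CrT-KO astrocytes and Cadps2 had stood out in VIP-like interneurons. The genotype contrasts in those 2 cell types were therefore chosen by measured values and are given as descriptions without a test.

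The data were single-nucleus RNA sequencing (snRNA-seq) of the cortex of the right hemisphere of male mice at postnatal day 100. Control animals (CrT+/y) were wild-type littermates of CrT-KO animals (CrT-/y), in which exons 5 to 7 of the X-linked creatine transporter gene Slc6a8 were deleted in the whole body. Each group held 2 libraries, each library came from 1 untreated animal on a C57Bl/6J background, and nuclei were sorted by flow cytometry before droplet capture. All p-values below therefore rest on 2 animals per group, and the spread of each gene was estimated with information shared across genes. Interaction fits compare populations within the same libraries. Groups of 2 libraries often do not overlap without any difference, so overlap is given below as a description and not as a test.

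Vesicle priming is the step that turns a docked synaptic vesicle into one that can fuse at once when calcium enters the nerve terminal. Munc13 proteins open syntaxin so that it can assemble with SNAP-25 and synaptobrevin into the SNARE complex. CAPS proteins share a priming domain with Munc13 and are best known for dense-core vesicles, which carry peptides and catecholamines. RIM proteins are scaffolds of the active zone that recruit Munc13, bind Rab3 on the vesicle and tether calcium channels.

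The libraries held 8282 to 9295 nuclei and 51507483 to 65240843 unique molecular identifiers (UMIs, one per captured RNA molecule), and any pair of libraries shared 12 to 19 barcodes. After 1236 predicted doublets were removed, 34026 of 34458 nuclei were placed by marker genes in 7 major populations, from 17002 excitatory neurons to 192 endothelial cells and pericytes. Excitatory and inhibitory neurons were divided further into 8 and 5 subclasses, which carry the suffix "-like" because they were named from markers alone. Astrocytes numbered 494 in all, 60 to 172 per library, and had summed astrocyte marker levels of 20646 to 21111 CPM. The targeted gene, Slc6a8, over all named nuclei, stood at 6.95 and 6.09 CPM in the 2 Control libraries and at 1.65 and 1.63 CPM in the 2 CrT-KO libraries. It fell by 1.94 on the log2 scale (SE 0.15, edgeR adjusted p = 0.0140), the direction the genotype labels call for.

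All levels are CPM, the UMIs of a gene in each 1000000 UMIs of the same population and library. Intronic reads were counted, so long genes collect more UMIs than short ones. In the mouse build GRCm38, Cadps2 spans 576.649 kb of the minus strand of chromosome 6 (23262773 to 23839421), and Unc13c spans 489.545 kb of the minus strand of chromosome 9 (73479422 to 73968966). Unc13a, on the minus strand of chromosome 8 (71624417 to 71671757), is the shortest of the set at 47.341 kb. Unc13b lies on chromosome 4 (43058953 to 43264871), Cadps on chromosome 14 (12372563 to 12823079), Rims1 on chromosome 1 (22286251 to 22805994), Rims2 on chromosome 15 (39198261 to 39684372) and Snap25 on chromosome 2 (136713453 to 136782428). Rnf133 and Rnf148 lie inside Cadps2 on its own strand, and Colgalt1 overlaps Unc13a on the opposite strand. Reads from such overlaps may be shared, so the counts of Cadps2 and Unc13a carry that uncertainty.

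Unc13c and Cadps2 were the most cell-type-restricted of the 8 genes. In the Control libraries Unc13c, which encodes Munc13-3, ranged over the 18 cell types from a mean of 797 CPM in MSN-like nuclei (those with markers of striatal projection neurons) to 6.37 CPM in L6 CT-like (layer 6 corticothalamic) nuclei. Behind MSN-like nuclei came oligodendrocyte precursors (OPCs) at 763 CPM, SST-like interneurons at 508 CPM, astrocytes at 409 CPM and endothelial cells and pericytes at 394 CPM. The next type was L5/6 NP-like (near-projecting) neurons at 185 CPM. In that order 9 of the 17 pairs of neighbours overlapped between their 2 Control libraries. MSN-like nuclei and OPCs did not, whereas SST-like nuclei overlapped with astrocytes, and astrocytes with endothelial cells and pericytes. Interneuron types were split by this gene, since PV-like nuclei held 12.6 and 7.96 CPM against 536 and 479 CPM in SST-like nuclei. Excitatory neurons as a whole were low for Unc13c, at 73.5 and 78.1 CPM. Within them, one cluster of 998 nuclei that matched no subclass held 456 and 559 CPM in the Control libraries and 427 and 436 CPM in the CrT-KO libraries.

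Cadps2, which encodes CAPS2, had a different order. Its Control mean was highest in L6 IT-like (layer 6 intratelencephalic) neurons at 1649 CPM, followed by L5 ET-like (extratelencephalic) neurons at 718 CPM, L4/5 IT-like neurons at 715 CPM and VIP-like interneurons at 705 CPM. It was lowest in MSN-like nuclei at 20.5 CPM, the type with the highest Unc13c. L2/3 IT-like neurons had the lowest mean of the 8 excitatory subclasses at 179 CPM, next to L6b-like neurons at 194 CPM. VIP-like nuclei held it at 776 and 635 CPM, while the PV-like, SST-like and LAMP5-like subclasses stayed at 51.3 CPM or lower in the Control libraries. Clusters placed with the inhibitory neurons that matched no subclass held more, such as 341 and 283 CPM in the one with 718 nuclei. Another of them, with 296 nuclei, held 564 and 500 CPM. Its leading genes were Sim1 and the glutamate transporter gene Slc17a6, so its place among inhibitory neurons is uncertain. Among the VIP-like nuclei the level itself was uneven. One sub-cluster of 301 nuclei led by Adarb2, Frem1 and Cadps2 held 1504 and 1079 CPM, and the other, of 436 nuclei and led by Vip, held 183 and 220 CPM.

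Cadps, which encodes CAPS1, was broad by comparison and did not share the pattern of its paralogue. LAMP5-like interneurons held the highest Cadps, at 2475 and 2330 CPM, and excitatory neurons held 1495 and 1521 CPM. LAMP5-like nuclei also had the highest Rims1, at 4646 and 4721 CPM, above the 3164 and 3354 CPM of L4/5 IT-like neurons. Rims2 was highest in L4/5 IT-like neurons, at 1636 and 1596 CPM, and lowest among neurons in L6 IT-like nuclei, at 541 and 630 CPM. Snap25 had its highest mean in the same L4/5 IT-like neurons, at 1369 and 1425 CPM, overlapping the 1326 and 1408 CPM of L5 IT-like neurons, and inhibitory neurons held 741 and 795 CPM. Unc13a, which encodes the ubiquitous brain isoform Munc13-1, was the most even across neuron types, at 140 and 131 CPM in excitatory and 134 and 119 CPM in inhibitory neurons, and 15 of its 17 pairs of neighbours overlapped. Unc13b, which encodes Munc13-2, was higher in excitatory neurons (186 and 163 CPM) than in inhibitory neurons (80.5 and 67.9 CPM). Microglia, which form no presynaptic terminals, still held 416 and 432 CPM of Snap25 and 482 and 486 CPM of Rims1. How much of these levels in non-neuronal nuclei was free neuronal RNA was not tested.

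**Figure D1:**
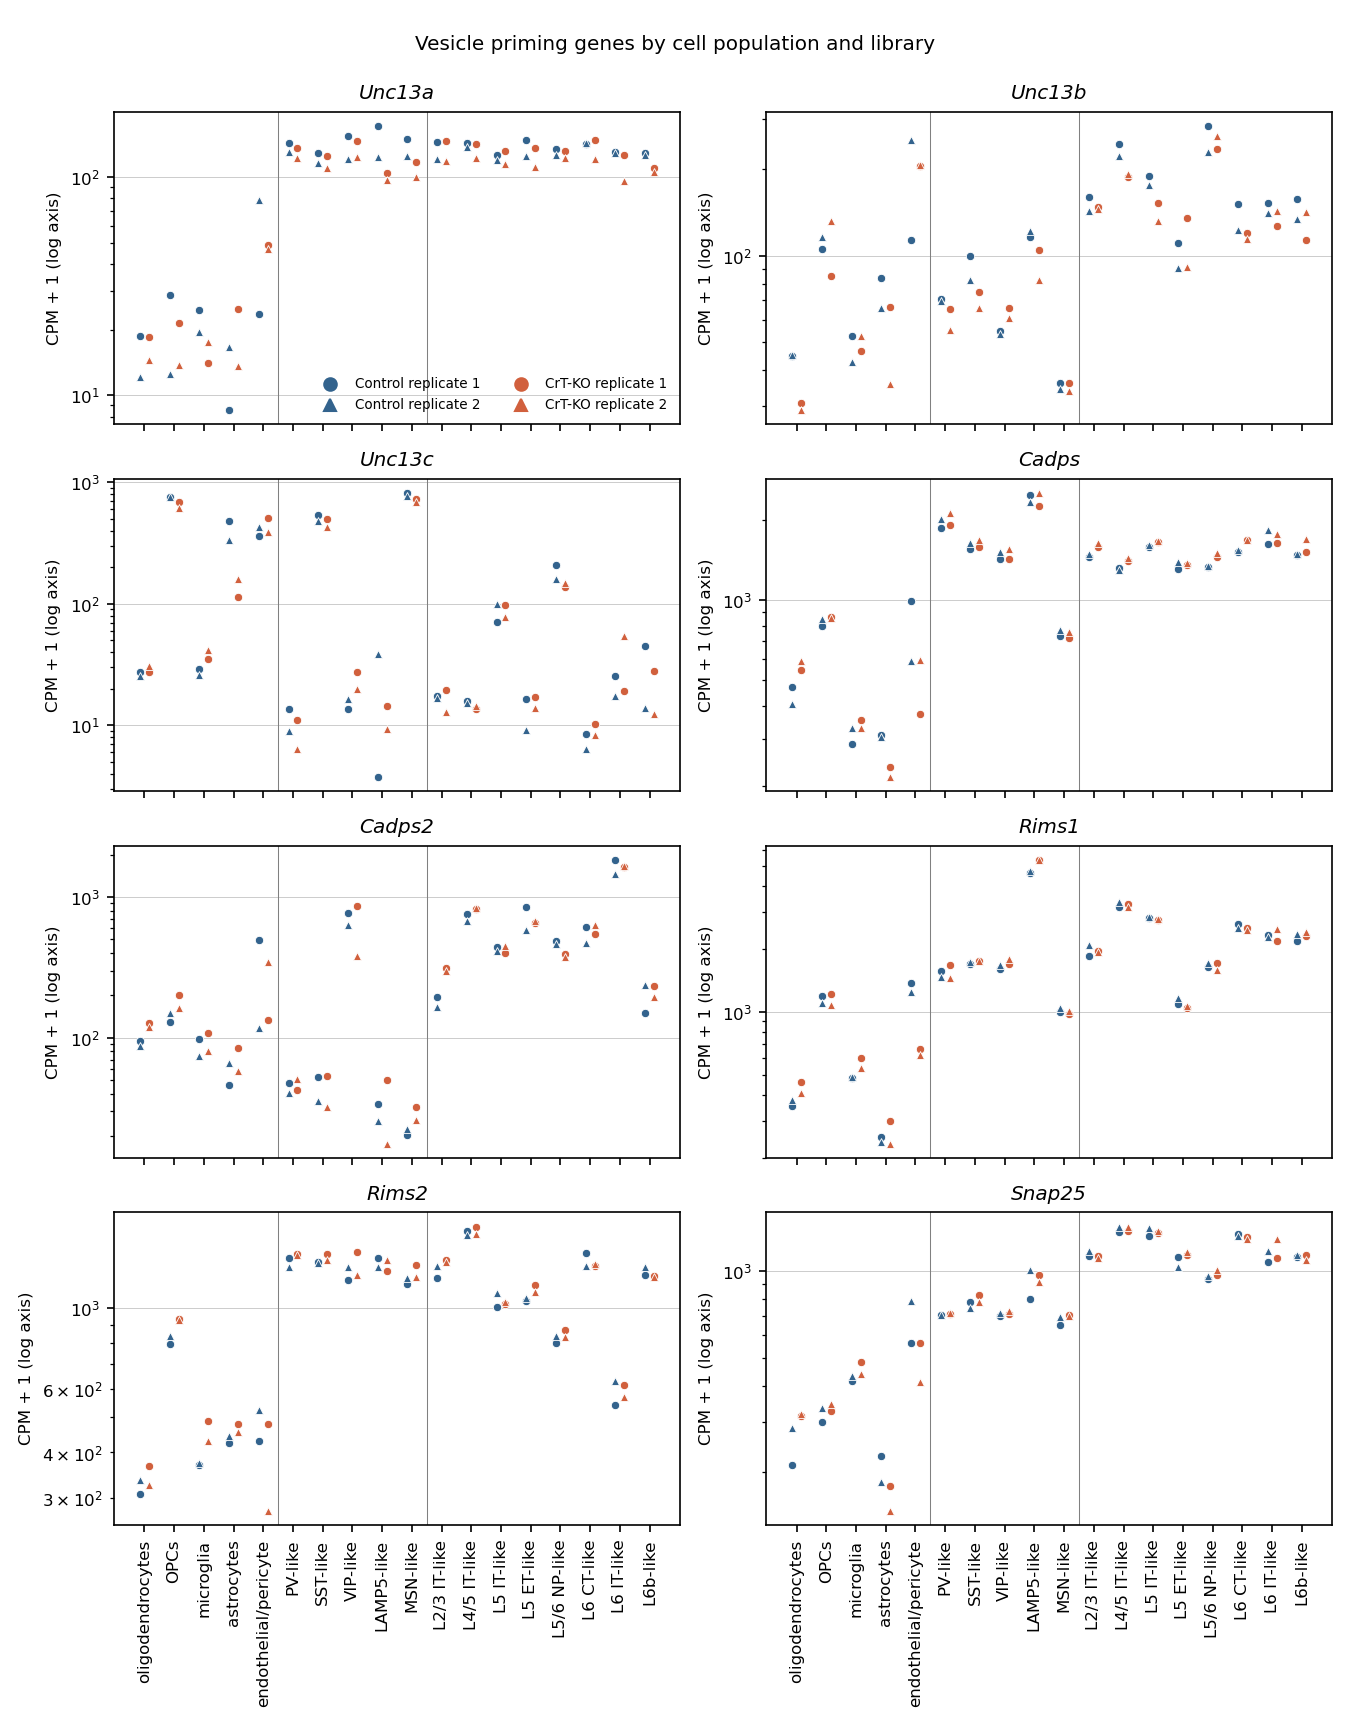
Levels of the 8 vesicle priming genes by cell type, as CPM + 1 on a log axis, with 1 point for each Control and CrT-KO library (circles, replicate 1, and triangles, replicate 2). Unc13c runs from 797 CPM in MSN-like nuclei to 6.37 CPM in L6 CT-like nuclei in the Control means, while Unc13a stays level across the neuron types.

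Levels of different genes were compared per length of gene, as CPM per 100 kb. UMIs need not rise in proportion to the span, so this order depends on the division and favours the shortest genes, Unc13a and Snap25. In undivided CPM, Control L2/3 IT-like neurons held more Rims1 (1854 and 2081) than Snap25 (1129 and 1173). They also held more Cadps2 (194 and 164 CPM) than Unc13a (143 and 120 CPM). Per length, Snap25 had the highest value of the set in Control excitatory neurons at 1801, followed by Rims1 at 453, Cadps at 335, Unc13a at 287 and Rims2 at 247. Unc13b and Cadps2 were close to each other there, at 84.8 and 82.4, and Unc13c was lowest at 15.5. In Control inhibitory neurons Snap25 was again first at 1113, followed by Cadps at 312 and Rims1 at 287. There Unc13c, at 82.0, stood above Unc13b at 36.0 and Cadps2 at 28.2. MSN-like nuclei made up 2536 of the 8326 inhibitory nuclei, and this order did not hold in every subclass. Unc13c stood at 163 in MSN-like and 104 in SST-like nuclei. In PV-like, VIP-like and LAMP5-like nuclei it stood at 2.10, 2.88 and 4.12, below Unc13b at 33.7, 25.8 and 57.5. In OPCs the CPM per 100 kb of Unc13c reached 156, and in astrocytes it reached 83.5.

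**Figure D2:**
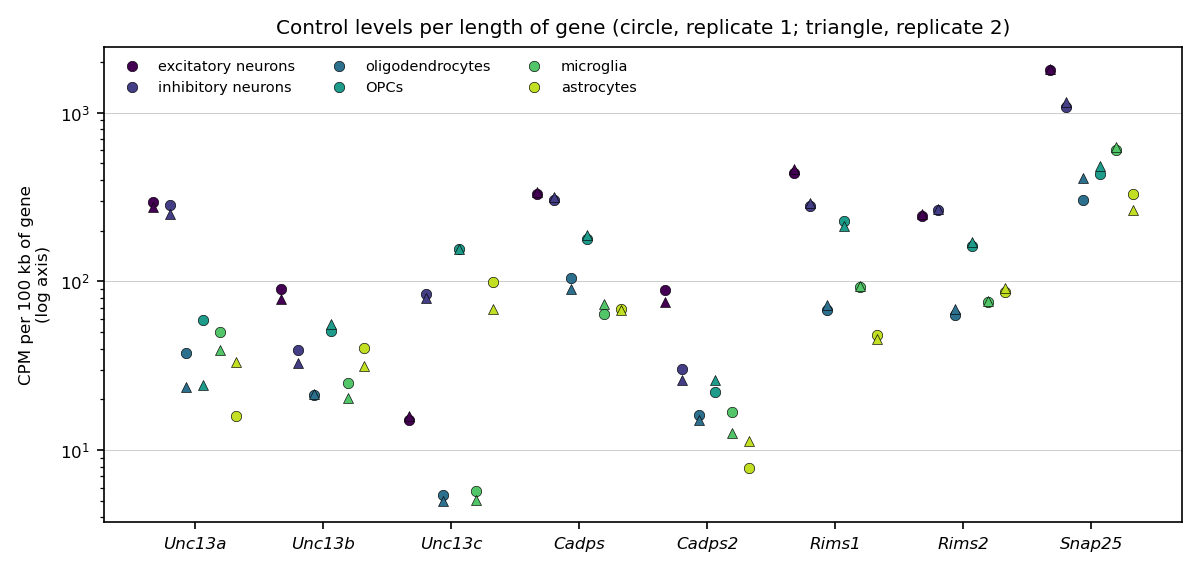
Level of each gene per 100 kb of its gene span (CPM per 100 kb, log axis) in 6 major populations, with 1 point for each Control library. Snap25 leads in excitatory and inhibitory neurons, and Unc13c is the lowest member in excitatory neurons, with a mean of 15.5.

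The genes whose Control means followed those of Unc13c most closely over the 18 cell types were Dach1 (Pearson's r = 0.847), Bmp6 (r = 0.767) and Ntn1 (r = 0.739). Among those most like Cadps2 were Kcnt2 (r = 0.801) and Rtn4r (r = 0.769). These coefficients were computed on the log2 scale, from the Control mean CPM + 1. They ranked the 9689 genes above a floor on level over 18 points from the same 2 libraries and are descriptive only.

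Cadps2 was higher in L2/3 IT-like neurons of CrT-KO mice. It stood at 194 and 164 CPM in the Control libraries (1463 and 1259 UMIs) and at 313 and 298 CPM in the CrT-KO libraries (2636 and 1958 UMIs). The groups did not overlap, and their means were 179 ± 21.2 and 306 ± 10.7 CPM (SD, n = 2 each). Cadps2 rose by 0.82 on the log2 scale, or 1.77-fold (SE 0.09, edgeR quasi-likelihood test, adjusted p = 0.000390). It was the one member of the 8 called in these neurons, where 0.759% of all 11457 tested genes were called at the same threshold of an adjusted p under 0.1. The median log2 difference of the 8 members was 0.04, against -0.01 for all tested genes. The share of L2/3 IT-like nuclei with at least 1 Cadps2 UMI was 47.4% and 49.1% in the Control libraries and 68.5% and 61.4% in the CrT-KO libraries. With each nucleus thinned to 500 UMIs, the shares were 7.69% and 5.90% against 14.9% and 12.8%. Microglia, at a far lower depth, had a Cadps2 UMI in 6.15% to 10.3% of nuclei unthinned and in 3.42% to 5.22% thinned.

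The L2/3 IT-like neurons comprised 3 sub-clusters with unlike levels of Cadps2, and the following fits within them were added after the data were seen. In the sub-cluster led by Ccbe1, Glis3 and Otof (1636 nuclei) Cadps2 stood at 82.9 and 66.6 CPM in Control and 125 and 119 CPM in CrT-KO libraries, a rise of 0.75 on the log2 scale (adjusted p = 0.00191). In the sub-cluster led by Stard8 and Kctd8 (1461 nuclei) it stood at 317 and 272 against 480 and 466 CPM, a rise of 0.73 (adjusted p = 0.000103). Within each of these 2 sub-clusters the groups did not overlap. The smallest sub-cluster, of 67 nuclei, held 73.1 and 86.4 against 112 and 203 CPM and was not called (log2 difference 0.87, SE 0.51, adjusted p = 0.992). The sub-cluster with more Cadps2 made up 42.9% and 44.1% of L2/3 IT-like nuclei in the Control libraries and 49.1% and 48.6% in the CrT-KO libraries.

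Markers of neighbouring excitatory types were measured in the same nuclei. The summed markers of L2/3 IT neurons were 1598 and 1515 CPM in Control and 1558 and 1459 CPM in CrT-KO libraries. Those of L4/5 IT neurons, which hold more Cadps2, were 787 and 651 against 690 and 642 CPM. Markers of L6 IT neurons, which hold the most, were 23.2 and 27.8 against 11.8 and 9.74 CPM. Markers of L5/6 NP neurons were higher in the CrT-KO libraries, at 173 and 177 against 218 and 207 CPM with no overlap. The L5/6 NP-like nuclei as a whole also held more Cadps2. Their sub-cluster that scored highest for NP markers (504 nuclei) held 205 and 216 CPM in the Control libraries, nearer to the L2/3 IT-like level. The markers of L5 IT, L5 ET, L6 CT and L6b neurons overlapped between the groups or were lower in the CrT-KO libraries. The part of these markers in the Cadps2 values was not tested.

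The genotype effect on Cadps2 differed between L2/3 IT-like neurons and the rest of the excitatory neurons. In an interaction fit, also added after the data were seen, the log2 difference in L2/3 IT-like nuclei exceeded that in the other excitatory nuclei by 0.74 (SE 0.06, adjusted p = 1.55e-08). Of the 8 members, Cadps2 alone was called, beside 0.704% of all genes in that fit. Over all excitatory neurons Cadps2 stood at 515 and 435 CPM in Control and 508 and 527 CPM in CrT-KO libraries, and the groups overlapped. The other excitatory nuclei were summed in the interaction fit. An L4/5 IT-like sub-cluster of 625 nuclei held 193 and 165 against 313 and 286 CPM of Cadps2. L5/6 NP-like ones held 89.0 and 85.7 against 170 and 142 CPM (238 nuclei). Others held 205 and 216 against 200 and 202 CPM (504 nuclei) and 759 and 641 against 550 and 575 CPM (659 nuclei). All were chosen after their values were seen, and L2/3 IT-like nuclei were not tested against single sub-clusters.

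**Figure D3:**
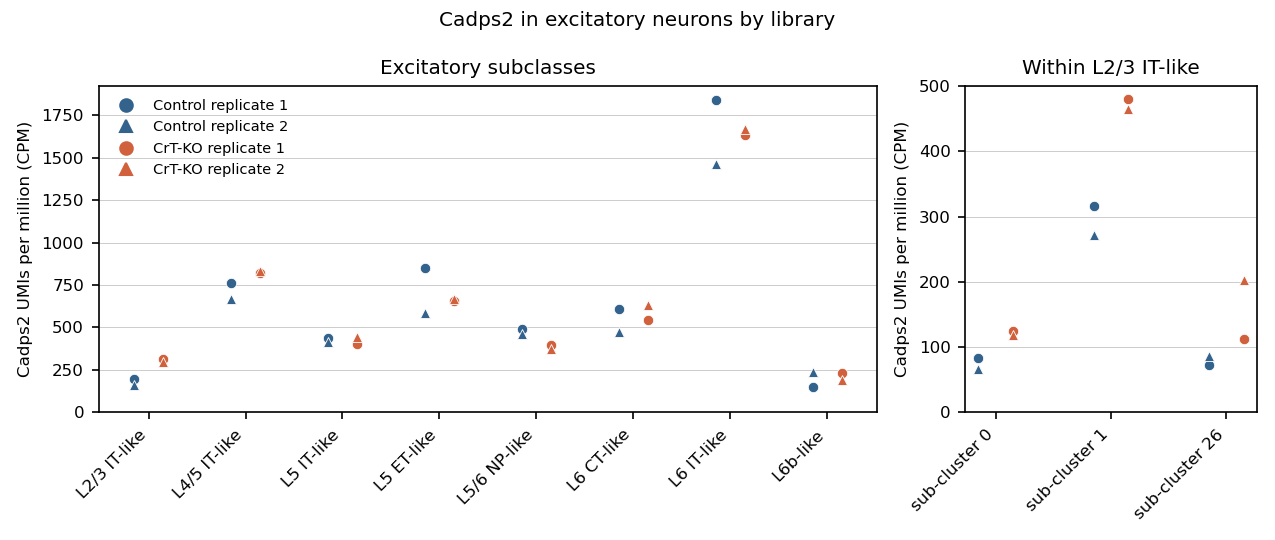
Cadps2 level (CPM) in each Control and CrT-KO library across the excitatory subclasses and within the sub-clusters of L2/3 IT-like neurons (0, led by Ccbe1, 1, led by Stard8, and 26, of 67 nuclei). In L2/3 IT-like neurons the Control points sit at 194 and 164 CPM and the CrT-KO points at 313 and 298 CPM.

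No other member was called in any excitatory subclass, by edgeR or by DESeq2, although 0 to 3 members per subclass had an unadjusted p under 0.05. In L4/5 IT-like neurons, with 3 such members, 1060 of all 11089 tested genes had such a p-value. Cadps2 in L4/5 IT-like neurons, at 760 and 670 CPM in Control and 820 and 830 CPM in CrT-KO libraries, gave a log2 difference of 0.25 (SE 0.08, adjusted p = 0.205), beside 1.06% of all genes called there. One L4/5 IT-like sub-cluster of 625 nuclei, singled out after its values were seen, had low Control levels of Cadps2, at 193 and 165 CPM, against 313 and 286 CPM in the CrT-KO libraries. In L5/6 NP-like neurons the Cadps2 values lay in the other direction, at 490 and 463 against 395 and 373 CPM (log2 difference -0.27, adjusted p = 0.520, 0.192% of all genes called). Their sub-clusters were not alike, and the name rests mainly on the one of 504 nuclei. Its mean score for NP markers was 3.69, against 0.86 in the one of 659 nuclei and 0.62 in the one of 238 nuclei. Cadps2 was lower in the one of 659 nuclei (759 and 641 against 550 and 575 CPM). It was nearly level in the one of 504 nuclei (205 and 216 against 200 and 202 CPM). In the one of 238 nuclei it was higher (89.0 and 85.7 against 170 and 142 CPM). Unc13c in the same L5/6 NP-like neurons was at 210 and 160 against 137 and 146 CPM (-0.34, adjusted p = 0.563). Cadps2 in the type with the highest level, L6 IT-like neurons, overlapped between the groups at 1838 and 1461 against 1635 and 1668 CPM, where 0.263% of all genes were called.

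Among the excitatory subclasses, the groups did not overlap for Unc13b in L4/5 IT-like, L5 IT-like and L6 CT-like neurons, without a call. In L4/5 IT-like neurons it stood at 245 and 222 CPM in Control and 187 and 192 CPM in CrT-KO libraries (log2 difference -0.25, SE 0.08, adjusted p = 0.259). In L5 IT-like neurons it stood at 189 and 175 against 152 and 132 CPM (-0.33, SE 0.10, adjusted p = 0.367), beside 0.291% of all genes called. In L6 CT-like neurons it stood at 151 and 122 against 119 and 113 CPM (-0.20, adjusted p = 0.770). In L2/3 IT-like neurons Unc13b overlapped between the groups, at 159 and 142 against 147 and 144 CPM. Unc13a overlapped in 6 of the 8 excitatory subclasses. The share of all genes without overlap is not given here, so these separations are descriptive only.

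Cadps was slightly higher in the CrT-KO libraries of excitatory neurons, at 1601 and 1642 CPM against 1495 and 1521 CPM, and the groups did not overlap. The log2 difference of 0.15 (SE 0.06) was not called (adjusted p = 0.507), and 0.222% of all genes were called in excitatory neurons. Similar differences, of 0.17 to 0.18, were seen for Cadps in L2/3 IT-like, L4/5 IT-like, L5/6 NP-like and L6 CT-like neurons, with adjusted p-values of 0.401 to 0.702. In these subclasses, and in L5 IT-like and L6b-like neurons, the groups did not overlap for Cadps, which was higher in the CrT-KO libraries. In L5 ET-like and L6 IT-like neurons they overlapped. As for Unc13b, this is descriptive only. In L6 CT-like neurons 0.292% of all genes were called, in L5 ET-like neurons 0.222% and in L6b-like neurons 0.0402%, with no member among them. Rims1, Rims2 and Snap25, the scaffolds and the SNARE protein, had log2 differences of -0.05 to 0.15 across the 8 excitatory subclasses.

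None of the 8 genes was called over all named nuclei, where 0.02% of all genes were called. An unadjusted p under 0.05 was found for 993 of all 14981 tested genes and for 3 members. Those 3 were Unc13c (159 and 163 against 147 and 131 CPM, log2 difference -0.17), Cadps (1411 and 1421 against 1487 and 1541 CPM, 0.14) and Cadps2 (411 and 339 against 414 and 413 CPM, 0.19), with adjusted p-values of 0.701 to 0.744. In such sums, a shift in the make-up of the nuclei and a change of RNA per nucleus cannot be told apart.

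**Figure D4:**
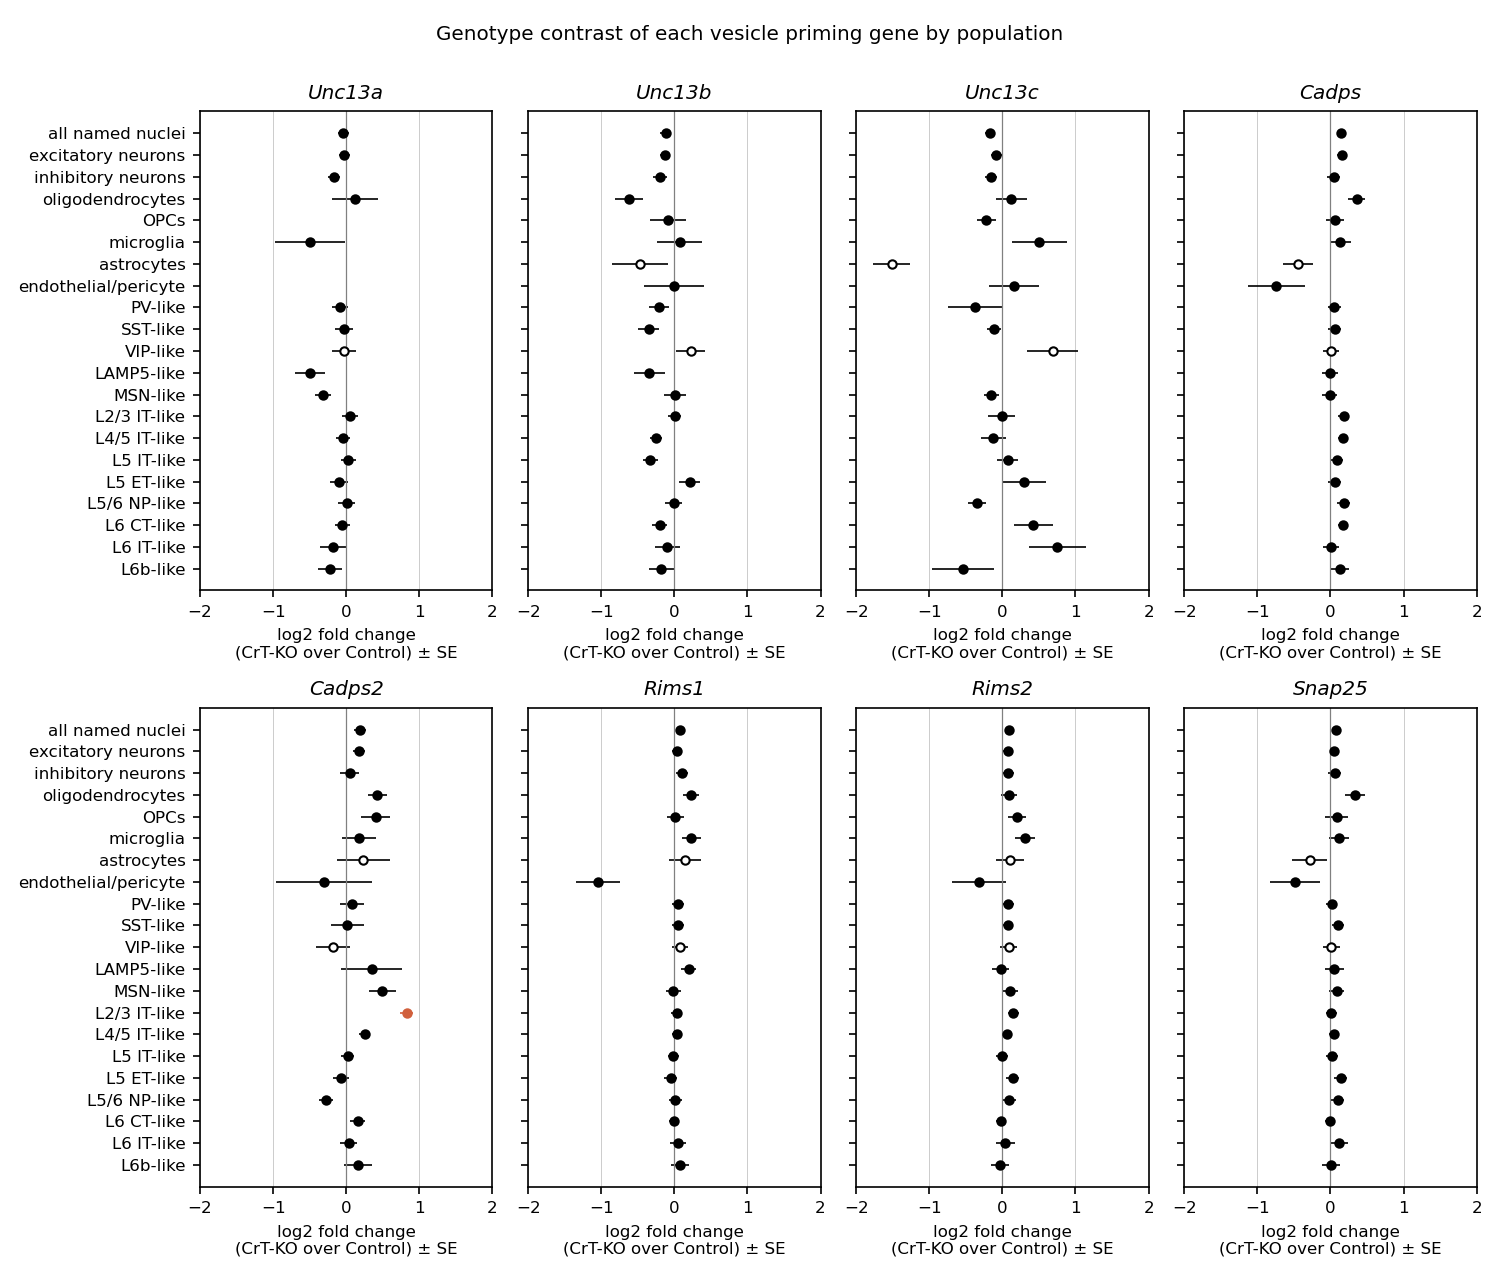
Log2 difference between CrT-KO and Control libraries (CrT-KO minus Control, bars SE) for each vesicle priming gene in each population, with open points for values not tested and orange for the call. Cadps2 in L2/3 IT-like neurons, at 0.82, is the one tested value with an adjusted p under 0.1, and the astrocyte and VIP-like values were not tested.

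In inhibitory neurons the priming genes differed little between genotypes. None of the 8 was called by edgeR or DESeq2, beside 0.0467% of all genes. An unadjusted p under 0.05 was found for 1 member, Unc13b, and for 657 of all 12860 tested genes. The members' log2 differences ran from -0.20 for Unc13b to 0.10 for Rims1. Unc13b stood there at 80.5 and 67.9 CPM in Control and 68.8 and 58.2 CPM in CrT-KO libraries, so the groups overlapped. In SST-like nuclei Unc13b did not overlap, at 98.8 and 81.6 against 74.1 and 64.7 CPM (log2 difference -0.35, SE 0.14, adjusted p = 0.852). PV-like and SST-like nuclei had no called member, beside 0.0106% and 0.0336% of all genes, and LAMP5-like nuclei had neither a called member nor any called gene (0 of 5962 by edgeR, with 277 at an unadjusted p under 0.05, and 0 by DESeq2). In LAMP5-like nuclei 1 member, Unc13a, had an unadjusted p under 0.05, at 170 and 123 against 103 and 95.7 CPM (log2 difference -0.50, adjusted p = 0.983). Rims1 in these nuclei stood at 4646 and 4721 against 5317 and 5356 CPM (0.20, adjusted p = 0.983).

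MSN-like nuclei, the population with the most Unc13c, held it at 818 and 776 CPM in Control and 725 and 692 CPM in CrT-KO libraries (log2 difference -0.15, SE 0.10, adjusted p = 0.880). Unc13a there stood at 149 and 124 against 116 and 98.9 CPM (-0.32, adjusted p = 0.681). Cadps2 was scarce, at 19.3 and 21.6 against 31.5 and 25.2 CPM (0.49, adjusted p = 0.691). None of these passed the threshold, which 0.0594% of all genes did. The groups did not overlap for any of the 3, which groups of 2 libraries often show without any difference. The share of all genes without overlap is not given here.

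The genotype effect was also compared directly between inhibitory and excitatory neurons. No member was called in that interaction, beside 0.0635% of all genes. The differences (inhibitory minus excitatory) ran from -0.15 for Cadps2 (SE 0.14) to 0.06 for Rims1 (SE 0.06), and the lowest adjusted p was 0.717, for Unc13a.

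Oligodendrocytes, which form no presynaptic terminals, had the most members with an unadjusted p under 0.05, at 4 of 8. Of all 9145 genes tested there, 601 had such a p-value. No member was called, beside 0.0328% of all genes. Unc13b stood at 43.8 and 44.2 CPM in Control and 29.8 and 28.0 CPM in CrT-KO libraries (log2 difference -0.62, SE 0.19, adjusted p = 0.400). The other 3 lay in the opposite direction. Cadps2 stood at 93.5 and 87.0 against 126 and 118 CPM (0.42, adjusted p = 0.396), Cadps at 472 and 407 against 546 and 590 CPM (0.36, adjusted p = 0.428) and Snap25 at 211 and 284 against 314 and 319 CPM (0.33, adjusted p = 0.697). All 15 excitatory markers were found in these nuclei, with summed levels of 1242 and 1170 CPM in Control and 1451 and 1214 CPM in CrT-KO libraries, and the 15 inhibitory markers found summed to 4129 and 3878 against 3517 and 3388 CPM. The same inhibitory list summed to 10056 and 10658 against 10020 and 11857 CPM in OPCs, so it does not measure neuronal RNA alone. The part of these markers in the values of Cadps, Cadps2 and Snap25 was not tested.

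The remaining non-neuronal populations tested had no called member either, by edgeR or by DESeq2, with 0 or 1 member at an unadjusted p under 0.05 in each. Over all tested genes, that p-value was found for 328 of 5908 in OPCs and 466 of 7266 in microglia. In endothelial cells and pericytes it was found for 98 of 1595. OPCs, second to MSN-like nuclei for Unc13c, held it at 763 and 762 CPM in Control and 682 and 613 CPM in CrT-KO libraries (log2 difference -0.22, SE 0.13, adjusted p = 0.918), beside 0.0339% of all genes called. Microglia, with 0.0413% of all genes called, had log2 differences from -0.49 for Unc13a to 0.51 for Unc13c, both at levels under 50 CPM. In endothelial cells and pericytes Rims1 stood at 1376 and 1241 against 660 and 619 CPM (-1.05, SE 0.30, adjusted p = 0.408), and 0.0627% of all genes were called. That population held 29 to 68 nuclei per library. The 15 excitatory markers in it, of which 14 had a UMI and Emx1 had none, summed to 5256 and 4536 CPM in Control and 2327 and 3302 CPM in CrT-KO libraries, and their part in the Rims1 values was not tested. Unc13a did not pass the filter on low counts in OPCs, astrocytes or endothelial cells and pericytes, nor did Unc13c in LAMP5-like nuclei.

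Astrocytes and VIP-like nuclei supplied the contrasts by which the set was assembled, and their values follow without a test. In astrocytes Unc13c stood at 484 and 334 CPM in Control libraries (64 and 149 UMIs) and at 113 and 159 CPM in CrT-KO libraries (38 and 50 UMIs). The Control values were the 2 highest, with means of 409 ± 106 against 136 ± 32.2 CPM (SD, n = 2 each), and the log2 difference was -1.52 (SE 0.25). An Unc13c UMI was found in 16 of 60 and 53 of 172 Control astrocytes, in 19 of 127 and 27 of 135 CrT-KO astrocytes, and in 2.36% to 3.76% of microglia, whose nuclei were shallower. For comparison, 0.0202% of all genes were called in astrocytes. The other 6 members that passed the filter there had log2 differences of -0.47 (Unc13b) to 0.24 (Cadps2).

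Markers of OPCs, which hold much Unc13c, and of inhibitory and excitatory neurons as a whole were measured in the astrocytes too. Markers of MSN-like and SST-like nuclei alone were not measured there. The summed OPC markers were 861 and 756 CPM in Control and 914 and 1038 CPM in CrT-KO astrocytes. Inhibitory markers summed to 914 and 1676 against 1120 and 1028 CPM, and excitatory markers to 1745 and 1790 against 1739 and 1517 CPM. The inhibitory list was also high in OPCs, so it does not measure neuronal RNA alone. The part of these markers in the Unc13c values was not tested.

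Cadps2 in VIP-like nuclei stood at 776 and 635 CPM in Control and at 862 and 380 CPM in CrT-KO libraries, so the CrT-KO libraries were the highest and the lowest of the 4. The log2 difference was -0.18 (SE 0.24) with all libraries, -0.89 without CrT-KO replicate 1 and 0.26 without CrT-KO replicate 2, so its sign rested on single libraries. In VIP-like nuclei 0 of 7373 genes were called by edgeR, with 329 at an unadjusted p under 0.05, and 0 by DESeq2. The sub-cluster led by Vip held 183 and 220 CPM of Cadps2 in Control and 90.9 and 74.1 CPM in CrT-KO libraries (96, 117, 53 and 34 UMIs), with no overlap. The sub-cluster led by Adarb2, Frem1 and Cadps2 held 1504 and 1079 against 1568 and 739 CPM, with the groups overlapping, and made up 36.0% and 40.9% of Control and 45.7% and 39.8% of CrT-KO VIP-like nuclei. Summed VIP markers were 25266 and 24332 against 24903 and 23343 CPM.

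**Figure D5:**
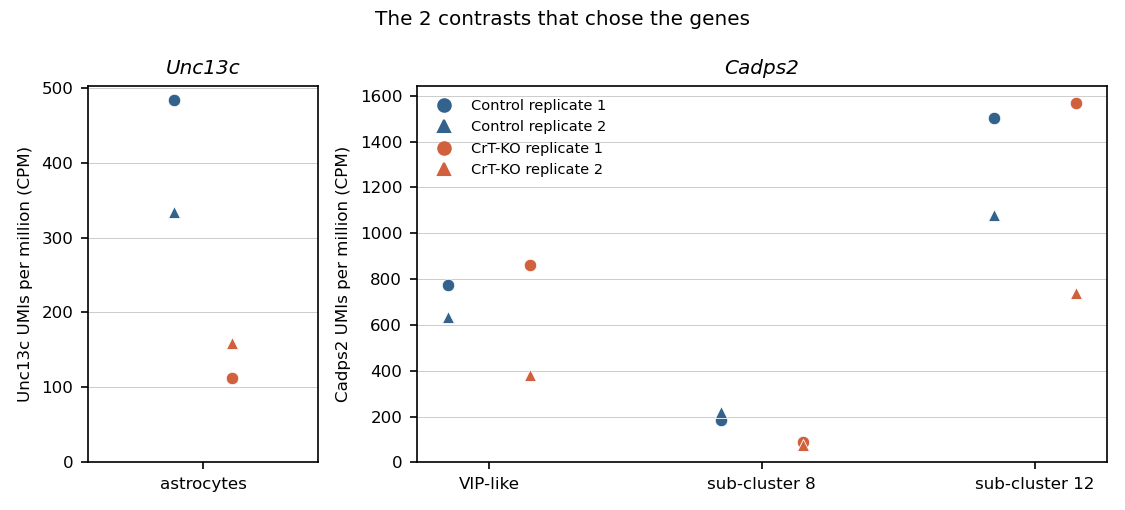
Level (CPM) of Unc13c in astrocytes and of Cadps2 in VIP-like nuclei in each Control and CrT-KO library, the values by which the set was assembled, with Cadps2 also in VIP-like sub-clusters 8 (led by Vip) and 12 (led by Adarb2). Both CrT-KO astrocyte values lie below both Control values, whereas the CrT-KO values of Cadps2 over all VIP-like nuclei, 862 and 380 CPM, lie on either side of the Control values.

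The wider release machinery was followed with a list of 51 genes: 13 SNAREs and their cofactors, 13 fusion clamps and calcium sensors, 11 active zone scaffolds, 12 vesicle proteins and 2 further Munc13 family genes. Over the 19 populations tested there was 1 call, while the share of all genes called ran from 0% in LAMP5-like nuclei to 1.06% in L4/5 IT-like neurons. Syn3, which encodes synapsin III, a protein of the vesicle surface, stood at 333 and 377 CPM in Control and 430 and 487 CPM in CrT-KO libraries of L2/3 IT-like neurons, the same population as the Cadps2 call. It rose by 0.42 on the log2 scale (SE 0.10, edgeR adjusted p = 0.0838), and the groups did not overlap. Of the 49 list genes that passed the filter in L2/3 IT-like neurons, 1 was called higher and none lower, beside 0.759% of all 11457 tested genes called in either direction. An unadjusted p under 0.05 was found for 7 of them and for 1060 of all 11457 tested genes. The log2 differences of the 49 ran from -1.85 to 0.73, and their median was 0.04, against -0.01 for all tested genes. In excitatory neurons 50 list genes passed, none was called and the median was 0.06. There 8 list genes had an unadjusted p under 0.05, beside 1261 of all 13950 tested genes. In inhibitory neurons 49 list genes passed, none was called and the median was 0.04. There 1 list gene had an unadjusted p under 0.05, beside 657 of all 12860 tested genes. The Syn3 call was lost without any 1 of the 4 libraries. In the interaction fit of L2/3 IT-like against the other excitatory neurons, 50 list genes passed the filter and 1 was called higher, beside 0.704% of all genes. Which list gene that was is not given here.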

How the data were processed

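Sorted nuclei were captured in droplets (10x Genomics). The authors aligned and counted with Cell Ranger 3.1.0 on GRCm38 (mm10), and the submitters' processing notes also name FastQC and Seurat. The deposited matrices hold raw UMI counts of called nuclei, with no cell type annotation. Whether counting used strand was not given in the sources used here. Members and gene lists were chosen with earlier results of these data known.

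Doublets were removed per library with Scrublet in scanpy 1.11.5. Nuclei were clustered (3000 variable genes, 30 principal components, 20 neighbours, Leiden resolution 1.0) without the 8 members and the 51 release genes. Clusters were named from marker lists. Thresholds for naming were chosen with the matrices in view, and names may differ from the study's. Of the named genes, members are given everywhere, and list genes only where called. One gene with a similar pattern is not reported here.

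UMI counts were summed per library and population and tested with edgeR 4.0.16 (quasi-likelihood, TMM, default filter on low counts, Benjamini-Hochberg over all tested genes, threshold 0.1) in R 4.3.3. SEs were derived from F. Interactions carried the library as a block. On simulated counts, 90.8% of genes changed by a log2 fold of 1 were recovered in excitatory neurons (13852 genes, 34 false calls) and 47.8% in astrocytes (4713 genes, 14 false calls). At a log2 fold of 2, 99.0% and 97.8% were recovered. DESeq2 1.42.0 and the alternatives of the closing section were also run. Gene positions came from GENCODE vM21.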

Additional observations from a re-analysis of the deposited data

Results flagged for a closer look

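The genotype effect on Cadps2 differed between L2/3 IT-like neurons and the other excitatory neurons by 0.74 on the log2 scale (SE 0.06, interaction fit in edgeR, adjusted p = 1.55e-08). It was picked out because 2 sets of cells under the same contrast had effects that differed in a direct test. The difference was higher in L2/3 IT-like nuclei, and the test was added after the data were seen. The other excitatory neurons were summed in that test. Some of their sub-clusters also held more Cadps2 in the CrT-KO libraries, and L2/3 IT-like nuclei were not tested against single sub-clusters.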

How the results depend on the processing

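The rise of Cadps2 in L2/3 IT-like neurons kept its direction and its call under every whole-population alternative run, with log2 values of 0.73 to 0.93 when each library was left out and a DESeq2 adjusted p of 3.5e-11. It was not called within the sub-cluster of 67 nuclei (0.87). Calls of members in the major populations went from 0 to 2 with the replicate block (Cadps in excitatory neurons, adjusted p = 0.0690, and Rims1 in endothelial cells and pericytes, adjusted p = 0.0833) and from 0 to 1 without single libraries (Snap25 in oligodendrocytes without Control replicate 2, adjusted p = 0.0289). In inhibitory subclasses 1 member, Cadps2 in MSN-like nuclei, was called with doublets kept (adjusted p = 0.00307). In excitatory subclasses the 1 call became 2 with no filter on low counts (adding Cadps2 in L4/5 IT-like neurons, adjusted p = 0.0737), 4 with the replicate block, and 1 to 2 without single libraries (Unc13c in L5/6 NP-like neurons without Control replicate 2, adjusted p = 0.0985, and in L6 IT-like neurons without CrT-KO replicate 1, adjusted p = 0.0287). The inhibitory against excitatory comparison had 0 to 1 calls without single libraries (Cadps2, -0.51, without CrT-KO replicate 1). The 1 call of the release list became 0 with no filter on low counts or at a threshold of 0.05, 2 with members kept in the clustering, 19 with the replicate block and 1 to 4 without single libraries. Unc13c in astrocytes ranged from -1.81 to -1.26 without single libraries, and Cadps2 in VIP-like nuclei from -0.89 (without CrT-KO replicate 1) to 0.26 (without CrT-KO replicate 2). The causes were not tested.

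The replicate block used numbers from the labels that marked no stated pairing, and with 2 pairs same-numbered libraries deviated together only weakly (correlations of 0.0233 to 0.218 across genes). Counts of called genes over the whole table were sensitive: 87 genes in L2/3 IT-like neurons became 609 with the replicate block, 32 with no filter and 19 to 31 without single libraries, and 31 in excitatory neurons became 625, 15 and 5 to 210, and 69 with DESeq2. With 2 animals per group and 60 to 172 astrocytes per library, 47.8% of astrocyte genes simulated at a log2 fold of 1 were recovered, and no smaller fold was simulated.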
